A study of Mus musculus with 20 samples.

Results

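The genes described here were 10 genes of antigen presentation by the major histocompatibility complex (MHC), taken from 18194 genes measured in mouse salivary glands (SGs). They were chosen by name as H2-Aa, H2-Ab1, H2-Eb1, H2-DMa, Cd74 and Ciita of the class II pathway and B2m, Tap1, Tap2 and Psmb8 of the class I pathway. All 10 were measured, by 23 probe sets, and a gene with several probe sets was represented by the one of highest mean signal. Glands without lymph nodes came from C57BL/6J mice labelled male, 5 each at an age of 4, 8, 12 or 16 weeks, and each mouse had 1 Affymetrix whole-genome array of its own. No treatment or altered allele is named in the labels, and the glands are not divided by type. The values were log2 signals after Robust Multichip Analysis (RMA), so a difference of 1 is a doubling of signal. Whole glands were measured, so fewer cells of a type and less RNA per cell cannot be told apart.

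The 20 arrays had median signals of 4.70 to 4.91, and Pearson correlations of 0.792 to 0.983 between any 2 arrays over all genes. The standard deviation (SD) of the gene values within an array, called the array spread below, ranged from 1.38 to 1.90. Its mean was 1.68 (SD 0.145, n = 5) in the mice of 4 weeks, 1.498 (SD 0.09) in those of 8, 1.64 (SD 0.027) in those of 12 and 1.51 (SD 0.139) in those of 16 weeks. The signal of the 3' probe set of Gapdh exceeded that of its 5' probe set by 1.49 to 3.94, a measure of RNA degradation. All 20 arrays went against the label male in the same way. Xist, which is transcribed from the inactive X chromosome of females, had signals of 8.96 to 10.7, above at least 96.3% of the genes of its array, and the Y-linked gene Eif2s3y had signals of 2.07 to 2.97, above at most 4.5% of genes. Of the other Y-linked genes, Kdm5d was above 12.4% to 31.2% and Uty above 30.8% to 59.4% of the genes of its array. The arrays did not differ among each other in this, and the ages are compared here as labelled. The gland marker Aqp5, the water channel of acinar cells, had signals of 8.19 to 10.9, above at least 97.3% of the genes of its array.

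MHC class II molecules display peptides from the lysosome to CD4+ T cells. H2-Aa and H2-Ab1 encode the chains of I-A, and H2-Eb1 the beta chain of I-E. Cd74 is the invariant chain that fills the groove until H2-DM, of which H2-DMa is a subunit, helps to exchange its remnant for peptide. Ciita is the coactivator that switches these genes on. MHC class I molecules display peptides from the cytosol to CD8+ T cells, with B2m as their invariant light chain. Psmb8 is a catalytic subunit of the immunoproteasome, and Tap1 and Tap2 form the transporter that carries peptides into the endoplasmic reticulum. Many of these genes respond to interferon gamma, and class II is best known from B cells, dendritic cells and macrophages.

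Of the 10 genes, 7 lay within 196982 bases on chromosome 17 (GRCm38.p6, positions 34119693 to 34316674), in the order H2-DMa, Tap1, Psmb8, Tap2, H2-Ab1, H2-Aa and H2-Eb1. B2m, Cd74 and Ciita were on other chromosomes. Promoter sequences from RefSeq (GRCm38.p6) were matched for 6 of the 10 genes. Class II promoters are known for X and Y boxes and class I promoters for an ISRE. The 4 promoters shown here held matches to such motifs, and they belong to a pair of class II genes that varied together between mice, to B2m and to Tap1. Each is the 150 bases before the transcription start, in the direction of the gene, with motif matches in capitals.
H2-Aa at chr17:34287824-34287973, minus strand: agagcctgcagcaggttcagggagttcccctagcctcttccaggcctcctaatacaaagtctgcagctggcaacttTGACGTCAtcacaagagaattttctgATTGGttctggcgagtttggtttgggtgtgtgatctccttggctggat
H2-Eb1 at chr17:34305717-34305866, plus strand: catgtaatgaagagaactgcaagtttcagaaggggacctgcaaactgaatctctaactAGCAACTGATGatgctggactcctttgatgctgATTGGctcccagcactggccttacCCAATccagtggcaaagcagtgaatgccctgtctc
B2m at chr2:122147537-122147686, plus strand: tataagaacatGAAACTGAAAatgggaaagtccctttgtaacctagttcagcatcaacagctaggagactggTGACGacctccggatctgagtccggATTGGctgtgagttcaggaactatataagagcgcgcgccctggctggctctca
Tap1 at chr17:34187406-34187555, plus strand: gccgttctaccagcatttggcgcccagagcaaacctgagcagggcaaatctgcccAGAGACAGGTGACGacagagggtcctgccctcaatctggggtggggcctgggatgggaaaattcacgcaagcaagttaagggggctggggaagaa
The motifs searched on both strands were AG, any 2 bases, AC, any 3 bases and TG for the core of the X1 box, where RFX binds, TGACG for the X2 box, where CREB binds, ATTGG for the Y box, where NF-Y binds, GAAA, any 2 bases and GAAA for the interferon-stimulated response element (ISRE) and TTCNNNGAA for the gamma-activated site (GAS). H2-Eb1 held an X1 match from position -92 and a Y match from -59, counted in bases before the start, with a second Y match on the opposite strand from -35. H2-Aa held no match to this X1 core but an X2 match on each strand, from -74 and -71, which overlap, and a Y match from -48. B2m held an ISRE match from -139, an X2 match from -78 and a Y match from -53, with a further X2 match on the opposite strand 45 bases after the start. Tap1 held overlapping X1 and X2 matches from -95 and -86, and its Y match, on the opposite strand from -222, lay outside the stretch printed. The whole windows, of 250 bases before and 50 after the start, held a GAS match in Psmb8 from -97 and a Y match in 1 of the pair of windows listed for H2-DMa, from -198. Among 32851 promoters of the same 300 bases, 14.8% held the X1 core, 20.8% the X2 core, 37.4% the Y box, 3.44% the ISRE and 8.3% the GAS. The X1 core together with the Y box was found in 5.87% and the X2 core together with the Y box in 7.73%. These are matches of letters, and binding was not measured.

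Age accounted for little of the difference between mice in most of these genes. Over the 4 ages, 0 of the 10 genes passed limma's moderated F-test at an adjusted p under 0.05, and 1 of 10 had an unadjusted p under 0.05. Of all genes, 2.6% passed the adjusted threshold and 25.9% the unadjusted one. The gene with the lowest p was B2m (adjusted p = 0.0802 from limma), which passed without mouse 2 at 4 weeks (0.0459), mouse 4 at 8 weeks (0.0345) or mouse 1 at 16 weeks (0.0218). Age accounted for 47.6% of the variance of B2m and 36.6% of that of H2-DMa. It accounted for 5.6% to 16.3% of the variance of the other 8 genes, against a median of 25.6% over all genes.

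**Figure D1:**
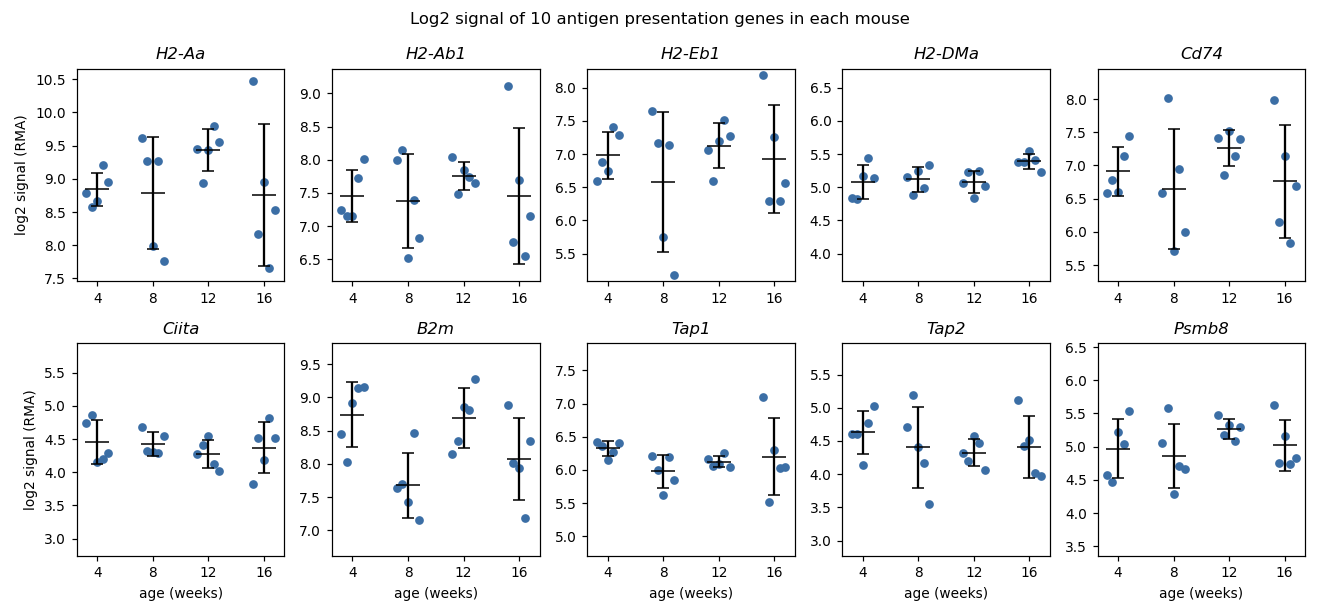
Log2 signal (vertical axis) of each of the 10 genes in each mouse against age in weeks (horizontal axis). Points are mice, 5 per age, and the bars show mean and SD, and each panel spans the same height in log2 units. The class II genes H2-Aa, H2-Ab1, H2-Eb1 and Cd74 spread widely at 8 and 16 weeks, and B2m has its lowest mean at 8 weeks.

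B2m, the light chain of class I molecules, was the 1 of 10 genes that passed the test between 4 and 8 weeks. Its signals were 8.45, 8.02, 8.92, 9.14 and 9.15 in the mice at 4 weeks and 7.63, 7.70, 7.43, 8.47 and 7.15 in the mice at 8 weeks. A single mouse at 8 weeks reached into the range of the 4-week mice, so that the groups overlapped. B2m fell by 1.06 on the log2 scale (SE, SE, 0.30, 95% interval from -1.68 to -0.44, adjusted p = 0.0405 from limma). Among all genes, 7.39% passed this test, 593 higher and 752 lower. The signals of B2m were 8.14, 8.34, 8.86, 8.81 and 9.28 at 12 weeks, and these overlapped the 8-week values. The log2 fold change from 8 to 12 weeks was 1.01 (SE 0.30, adjusted p = 0.143 from limma). At 16 weeks the signals were 8.89, 8.01, 7.94, 7.19 and 8.34, on average 0.61 below those at 12 weeks (adjusted p = 0.363 from limma) and 0.66 below those at 4 weeks (adjusted p = 0.183 from limma). A second probe set of B2m gave a log2 fold change of -1.19 from 4 to 8 weeks (SE 0.30, adjusted p = 0.0319 over all probe sets from limma).

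The call of B2m from 4 to 8 weeks moved with the array spread. Its signal correlated with the array spread within ages (Pearson r = 0.717, permutation p = 0.00192, adjusted p = 0.00904; Spearman rho = 0.693, permutation p = 0.00235, adjusted p = 0.0125; r = 0.707 without the 2 farthest arrays). With the array spread as a covariate the log2 fold change was -0.47 (adjusted p = 0.515 from limma), and 16 genes passed in all against 1345 without it. That count was 14 and 20 without mouse 5 or 4 at 4 weeks, 17 and 22 without mouse 3 or 5 at 8 weeks and 790 without mouse 2 at 8 weeks. It was 2062 and 2694 without mouse 1 or 4 at 8 weeks, 2482 without mouse 1 at 16 weeks, 210 with array weights and 2 in a fit to the 2 ages alone. With the replicate numbers of the labels as a replicate block, the adjusted p was 0.0656. The call was also lost without mouse 3, 4 or 5 at 4 weeks, mouse 2, 3 or 5 at 8 weeks or mouse 4 at 12 weeks (adjusted p from 0.0505 to 0.135). It held in 18 of 31 alternatives, in which the adjusted p ranged from 0.0153 to 0.515. The part of the array spread in the result was not tested.

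The class I partners of B2m did not pass in any comparison. Tap1 had signals of 6.42, 6.36, 6.15, 6.28 and 6.41 at 4 weeks and 6.21, 6.00, 5.62, 6.19 and 5.85 at 8 weeks, that is, a log2 fold change of -0.35 (95% interval from -0.76 to 0.07, adjusted p = 0.223 from limma). At 12 weeks the mice were within 6.05 to 6.25, and at 16 weeks they ran from 5.52 to 7.10. Tap2 ranged from 3.55 to 5.19 over the 20 mice, both ends at 8 weeks, and its 4 log2 fold changes lay between -0.23 and 0.08. Its mean signal of 4.44 was near that of Ciita (4.38), which lay low on the arrays. Psmb8 had means of 4.97, 4.86, 5.27 and 5.02 at 4, 8, 12 and 16 weeks (SD 0.443, 0.487, 0.15 and 0.382, n = 5 each), and its log2 fold changes lay between -0.25 and 0.41. The 4 probe sets of Tap1 disagreed in sign from 4 to 8 weeks, from -0.35 to 0.61, and none of them passed (lowest adjusted p = 0.122 over all probe sets from limma).

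H2-Aa, the alpha chain of I-A, had signals of 8.79, 8.58, 8.66, 9.21 and 8.96 at 4 weeks and 9.62, 9.27, 7.99, 9.27 and 7.77 at 8 weeks. The mice at 12 weeks had 9.45, 8.93, 9.43, 9.80 and 9.56, and those at 16 weeks 10.5, 8.16, 8.95, 7.65 and 8.53. The highest and the lowest value of all 20 mice were thus both found at 16 weeks. The log2 fold changes were -0.06, 0.65, -0.68 and -0.09 from 4 to 8, 8 to 12, 12 to 16 and 4 to 16 weeks (SE 0.40 each), and none passed (adjusted p = 0.93, 0.368, 0.457 and 0.915 from limma). Without mouse 1 at 16 weeks, the difference from 12 to 16 weeks was -1.11 and passed (adjusted p = 0.0495 from limma).

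Cd74, the invariant chain, had signals of 6.58, 6.78, 6.60, 7.15 and 7.44 at 4 weeks and 6.58, 8.01, 5.71, 6.94 and 5.99 at 8 weeks. At 12 weeks they were 7.41, 6.85, 7.52, 7.15 and 7.40, and at 16 weeks 7.98, 6.15, 7.14, 5.84 and 6.69. The values at 4 and 12 weeks lay inside the range of those at 8 and at 16 weeks. Its log2 fold changes, -0.26, 0.62, -0.51 and -0.15 in the same order, did not pass (lowest adjusted p = 0.36 from limma). H2-Ab1 had means of 7.45, 7.37, 7.75 and 7.46 at the 4 ages (SD 0.389, 0.709, 0.211 and 1.02, n = 5 each), and H2-Eb1 had means of 6.98, 6.58, 7.13 and 6.92 (SD 0.353, 1.05, 0.339 and 0.813, n = 5 each). Neither gene passed in any comparison (adjusted p from 0.436 to 0.998 from limma). The 3 probe sets of H2-Ab1 had log2 fold changes of -0.36, -0.08 and 0.58 from 4 to 8 weeks, so the sign of this gene depended on the probe set (adjusted p from 0.114 to 0.898 over all probe sets from limma).

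Ciita, the class II coactivator, lay low on the arrays, with signals of 3.82 to 4.87 that exceeded 16.0% to 35.7% of the genes of the same array. Its means were 4.45, 4.43, 4.28 and 4.37 at the 4 ages (SD 0.33, 0.179, 0.212 and 0.383, n = 5 each), and its lowest value belonged to the 16-week mouse with the highest H2-Aa. H2-DMa, of the peptide editor H2-DM, had signals of 4.83, 4.83, 5.17, 5.45 and 5.13 at 4 weeks and 5.38, 5.37, 5.55, 5.40 and 5.23 at 16 weeks. The log2 fold change was 0.31 (95% interval from 0.03 to 0.59, unadjusted p = 0.033 from limma), and it did not pass the adjusted threshold (adjusted p = 0.169). The step from 12 to 16 weeks was 0.31 as well (adjusted p = 0.31 from limma), after 0.04 from 4 to 8 and -0.04 from 8 to 12 weeks. A second probe set of H2-DMa gave 0.44, -0.50 and 0.44 from 4 to 8, 8 to 12 and 12 to 16 weeks. These did not pass (adjusted p = 0.159, 0.234 and 0.387 over all probe sets from limma), and the course of this gene depended on the probe set.

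**Figure D2:**
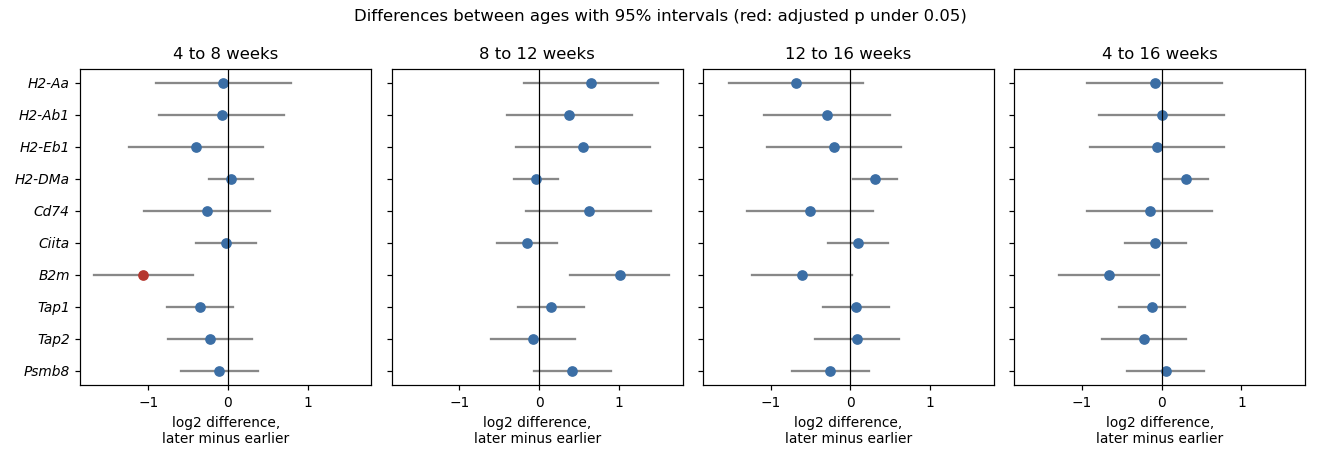
Log2 difference in signal, later minus earlier age (horizontal axis), of each of the 10 genes (vertical axis) in 4 comparisons, from limma over 20 arrays. Points are estimates and lines their 95% intervals, and B2m from 4 to 8 weeks, in red at -1.06, is the 1 difference that passed the adjusted threshold.

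Counted together, 1 of 10 genes passed from 4 to 8 weeks, and 0 of 10 passed from 8 to 12, from 12 to 16 and from 4 to 16 weeks by limma. The background shares were 7.39%, 0.0055%, 0.192% and 3.63% of all genes. At an unadjusted p under 0.05 the counts were 1, 1, 1 and 2 of 10, against 32.4%, 18.8%, 14.2% and 24.2% of all genes. In no comparison were the values of a gene of the 10 separate between ages. Among all genes the 5 mice of one age did not overlap the 5 of the other in 5.75%, 5.34%, 2.65% and 3.07%. From 4 to 8 weeks 9 of the 10 log2 fold changes were negative, with a median of -0.17 against 0.05 over all genes, but 7 were positive with the array spread as a covariate (median 0.28). From 8 to 12 weeks 7 were positive (median 0.40, all genes -0.05), against 4 with this covariate. From 12 to 16 weeks 4 were positive and from 4 to 16 weeks 3, against 7 and 8 with this covariate. With median centring, quantile normalization and cyclic loess, 1, 3 and 2 of the 10 were positive from 4 to 8 weeks and 7, 8 and 9 from 8 to 12 weeks. From 12 to 16 weeks 4, 4 and 7 were positive and from 4 to 16 weeks 3, 6 and 5, so that the majority sign of these latter comparisons changed with the scaling.

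The class II genes H2-Aa, H2-Ab1, H2-Eb1 and Cd74 differed between mice of the same age more than most genes did, by their chosen probe sets. Within ages, the SD was 0.71 for H2-Aa, 0.66 for H2-Ab1, 0.709 for H2-Eb1 and 0.661 for Cd74, above at least 95.2% of all genes, whose median was 0.285. The SE of a difference was 0.38 for the chosen probe set of H2-Ab1 and 0.22 and 0.24 for its others. For H2-Aa it was 0.40, and 0.43, 0.42 and 0.25 for the others. Relations between genes were not repeated on other probe sets. B2m had an SD of 0.517 (above 88.1% of genes), Tap2 of 0.429, Psmb8 of 0.388 and Tap1 of 0.323. Ciita, with 0.288, was near the median of all genes, and H2-DMa, with 0.189, was above 10.4% of genes only. By Dixon's criterion at a critical value of 0.71, 0 of the 40 sets of 5 mice held an outlier. H2-Ea, which encodes the alpha chain of I-E and carries a promoter deletion in C57BL/6 mice, had means of 7.13, 7.21, 7.28 and 7.14 at the 4 ages and an SD of 0.243 within ages, above 31.8% of genes. Its signal was above 71.6% to 94.0% of the genes of its array. Whether this signal was specific to H2-Ea was not tested, so it does not show whether the gene was transcribed.

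The 4 class II genes that spread widely did so together. At 16 weeks mouse 1 ranked first and mouse 3 second in H2-Aa, H2-Ab1, H2-Eb1 and Cd74. At 8 weeks mice 3 and 5 held the lowest places in all 4 genes. Over the 20 mice, with values centred on each age, the 6 pairs of these genes had Pearson r of 0.794 to 0.945, and all 6 passed among 45 pairs tested (adjusted permutation p at most 0.00806, 100000 permutations within ages). H2-Aa and H2-Eb1, whose promoters are printed above, correlated most (r = 0.945, permutation p = 1e-05, the smallest these permutations can give, adjusted p = 0.00045; rho = 0.973, permutation p = 1e-05, adjusted p = 0.00045; r = 0.977 without the 2 farthest mice). The r of the 6 pairs was 0.716 to 0.977 without the 2 mice farthest from the median of the first gene.

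In all, 26 of the 45 pairs passed with Pearson r and 24 with Spearman rho. H2-Aa correlated with Tap1 at 0.817 (permutation p = 0.00475, adjusted p = 0.0153; rho = 0.798, permutation p = 0.00149, adjusted p = 0.00745; r = 0.709 without the 2 farthest mice). H2-Ab1 correlated with Psmb8 at 0.83 (permutation p = 4e-05, adjusted p = 0.0006; rho = 0.827, permutation p = 0.0002, adjusted p = 0.0015; r = 0.76 without the 2 farthest mice). Ciita had a negative r with all 9 other genes, from -0.725 to -0.309, and 4 of these passed. The lowest was that with B2m (permutation p = 0.00204, adjusted p = 0.00835; rho = -0.668, permutation p = 0.00557, adjusted p = 0.0147; r = -0.568 without the 2 farthest mice). H2-DMa had r of -0.392 to 0.025, and 0 of its 9 pairs passed. Without mouse 1 at 16 weeks, 9 of 45 pairs passed.

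The array spread moved with these genes. Of the 10 genes, 9 correlated with it within ages past the adjusted threshold, 8 of them positively, from 0.627 for Tap2 to 0.829 for H2-Ab1, and Ciita negatively (r = -0.645, permutation p = 0.0141, adjusted p = 0.0364; rho = -0.588, permutation p = 0.0209, adjusted p = 0.0575; r = -0.69 without the 2 farthest arrays). H2-DMa was the exception (r = 0.15, permutation p = 0.607, adjusted p = 0.684). H2-Aa had r = 0.789 (permutation p = 5e-05, adjusted p = 0.000667; rho = 0.847, permutation p = 1e-05, adjusted p = 0.0002) and 0.916 without the 2 arrays of the most extreme spread. Over all genes, 33.5% had an r beyond 0.6 in size, so that such a relation was common. When the array spread was removed by regression, 5 of 45 pairs passed, and 4 of these 5 were among H2-Aa, H2-Ab1, H2-Eb1 and Cd74. The 6 pairs of these genes then had r of 0.56 to 0.857, and H2-Aa with H2-Eb1 had 0.857 (adjusted permutation p = 0.0063). The fifth pair was H2-Ab1 with Tap1 (r = 0.679, adjusted permutation p = 0.0266). The other 39 pairs, this one included, had a median r of 0.052.

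**Figure D3:**
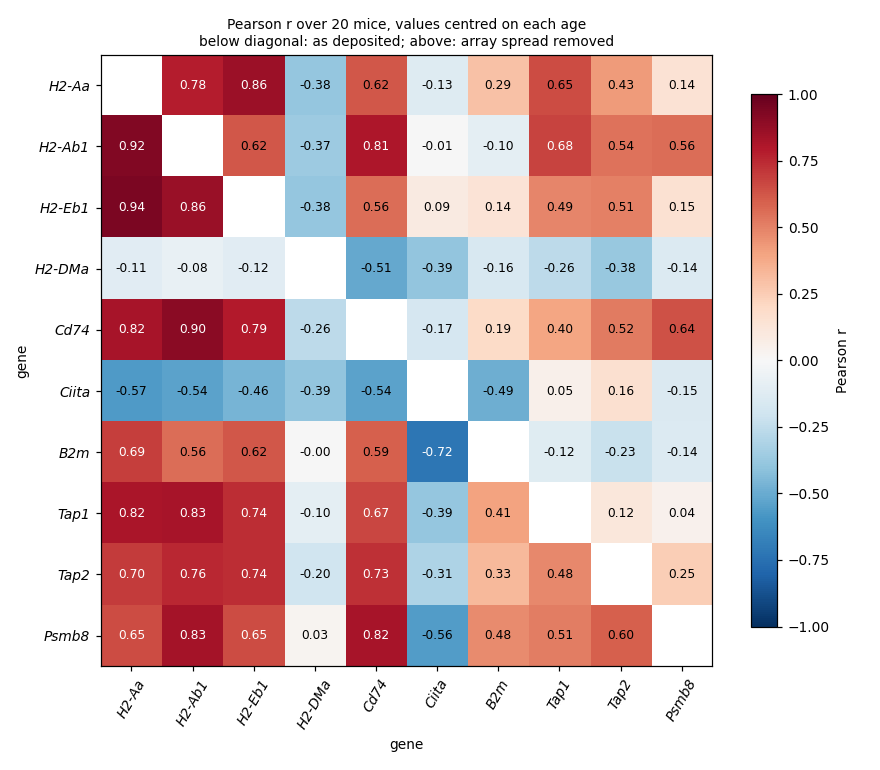
Pearson r between each 2 of the 10 genes (both axes) over 20 mice, with values centred on each age. Squares below the diagonal give r as deposited and those above it r after removal of the array spread, and the block of H2-Aa, H2-Ab1, H2-Eb1 and Cd74 stays above 0.55 in both.

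**Figure D4:**
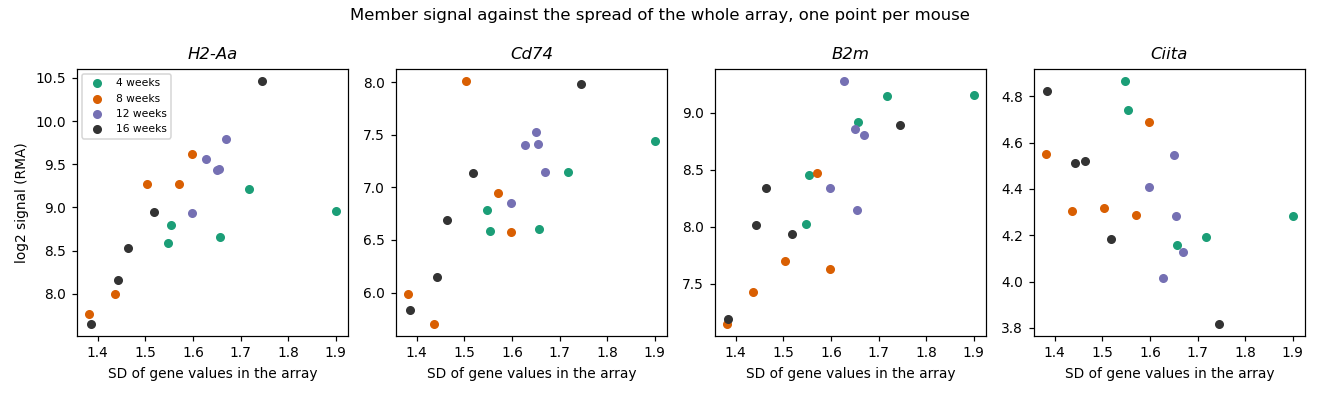
Log2 signal (vertical axis) of H2-Aa, Cd74, B2m and Ciita against the SD of all gene values in the same array (horizontal axis), 1 point per mouse, coloured by age. H2-Aa, Cd74 and B2m are higher in arrays with a wider spread, and Ciita is lower.

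Macrophage markers correlated positively with H2-Aa, H2-Ab1, H2-Eb1 and Cd74, and T cell markers correlated negatively with the same 4 genes, for which r was 0.108 to 0.403 after removal of the array spread. The mean of 12 macrophage markers, among them Adgre1, Csf1r and the C1q chains, ranged from 5.85 to 6.20 at 4 weeks, 5.61 to 6.00 at 8 weeks, 5.77 to 6.02 at 12 weeks and 5.47 to 6.16 at 16 weeks. It correlated with H2-Ab1 at 0.911 within ages (permutation p = 3e-05, adjusted p = 0.00048; rho = 0.926, permutation p = 1e-05, adjusted p = 0.0002; r = 0.884 without the 2 farthest mice). Of the 10 genes, 9 passed with this list, 8 positively and Ciita negatively, the last by Pearson r only. After removal of the array spread the r of H2-Ab1 was 0.707. The 8 positive ones then ran from 0.251 for B2m to 0.733 for Cd74, and Ciita had -0.269. The mean of 9 B cell markers ranged from 4.66 to 5.54 over the 20 mice and correlated negatively with H2-Aa, H2-Ab1 and B2m past the threshold (lowest r = -0.731, for B2m, permutation p = 0.00106, adjusted p = 0.00652; rho = -0.653, permutation p = 0.00445, adjusted p = 0.0178; r = -0.733 without the 2 farthest mice). The 11 T cell markers correlated negatively with 6 of the 10 genes (lowest r = -0.767, for Psmb8, permutation p = 0.00074, adjusted p = 0.00538; rho = -0.791, permutation p = 0.00058, adjusted p = 0.00473; r = -0.693 without the 2 farthest mice). The 11 dendritic cell markers did so with 5. For H2-Ab1 the r with B, T and dendritic cell markers turned to 0.191, 0.108 and 0.383 after removal of the array spread. B2m stayed negative with B and dendritic cell markers, at -0.357 and -0.314, and Psmb8 with T cell markers, at -0.302. The other relations that had passed with these 3 lists turned positive, from 0.064 to 0.403. With the markers of NK cells and of lymph node stroma and follicles 0 of the 10 genes passed (r from -0.534 to 0.393 and from -0.525 to 0.487). After removal of the array spread, the r with the lymph node list was 0.639 for H2-Aa, 0.533 for H2-Ab1, 0.619 for H2-Eb1 and 0.411 for Cd74. It was -0.524 for H2-DMa and between -0.068 and 0.414 for the remaining genes. These later values were not tested. Tap1 passed with those of plasma cells by Pearson r (0.513, permutation p = 0.00662, adjusted p = 0.0221; rho = 0.577, permutation p = 0.0242, adjusted p = 0.0644; r = 0.579 without the 2 farthest mice). These relations belonged to a family of 80, and the part of cell types in the class II levels was not tested.

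The 15 marker lists did not differ between ages past the adjusted threshold (exact permutation tests over all labelings of 5 against 5 mice, two-sided, adjusted over 60 tests). The lowest adjusted p was 0.0952 by these exact tests, shared by the B cell list, whose mean was 0.38 higher at 8 than at 4 weeks and 0.30 lower at 12 than at 8 weeks. For the macrophage list the difference from 4 to 8 weeks was -0.17 (p = 0.159 in the exact test, adjusted p = 0.317).

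Apart from the 10 genes themselves, those with the pattern most like H2-Aa over the 20 mice as deposited, by Pearson r, were Fxyd2 (0.94), Crispld2 (0.908), Gsn (0.907), Ascl3 (0.897) and Fkbp9 (0.895). Fxyd2 is a regulator of the sodium pump and Ascl3 a transcription factor of ionocytes in ducts. With values centred on each age they were Gpr155 (0.964), Rbbp7, Derl1, Rpl35 and G0s2 (0.942). Those nearest to Cd74 were Cgnl1, Golga2, Wfdc2, Ap1s1 and Pfkm (0.876 to 0.867) as deposited and Slc35b2, Derl3, Mtch1, Adgrg1 and Clstn1 (0.955 to 0.929) when centred. Golga2 is a matrix protein of the Golgi, and Derl3, which also stands among the plasma cell markers, acts in the degradation of proteins from the endoplasmic reticulum. The nearest to B2m were Gnas, Cd2ap, Ubxn2a, Tra2b and Ube2b (0.927 to 0.903) as deposited and Scfd1, Gnas, Sfr1, Mal2 and Nr1d1 (0.908 to 0.879) when centred. The nearest to Tap1 were Cyth3, Resf1, Nagk, Drg1 and Pogk (0.865 to 0.854) as deposited and Ndufaf8, Plekhh1, Adam10, Foxj2 and Crispld2 (0.915 to 0.902) when centred. With 18194 genes and 20 mice, values of this size describe these arrays only.

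The other genes of the pathway were described by 7 lists, which held 90 measured genes besides the 10. Beside the counts of each list stand the shares over all genes, of which 7.39% passed from 4 to 8 weeks and 3.63% from 4 to 16 weeks. Of 15 measured genes of class I peptide supply and loading, 2 fell and 0 rose from 4 to 8 weeks, with a median of -0.41 against 0.05 over all genes. These were B2m and Pdia3, the disulfide isomerase of the peptide-loading complex. Pdia3 had signals of 6.36, 6.83, 8.26, 7.36 and 8.49 at 4 weeks and 4.80, 5.32, 5.11, 6.70 and 4.52 at 8 weeks, with 1 mouse at 8 weeks inside the 4-week range. Its log2 fold change was -2.17 (SE 0.43, adjusted p = 0.0185 from limma), and from 4 to 16 weeks it was -2.27 (adjusted p = 0.0113). From 4 to 16 weeks Calr, the chaperone calreticulin, also passed, with a log2 fold change of -1.29 (limma adjusted p = 0.0456, SE 0.35). With the array spread as a covariate, Pdia3 had a log2 fold change of -1.34 from 4 to 8 weeks (adjusted p = 0.239 from limma) and still passed from 4 to 16 weeks (-1.51, adjusted p = 0.0485 from limma), while Calr did not (adjusted p = 0.365). The call of Calr was lost in 20 of 31 alternatives and that of Pdia3 from 4 to 16 weeks in 1. The list counted 0 called genes from 4 to 8 weeks without mouse 4 or 5 at 4 weeks or mouse 3 or 5 at 8 weeks, 1 without mouse 3 at 4 weeks, mouse 2 at 8 weeks or mouse 4 at 12 weeks, and 3 or 4 without mouse 1 or 2 at 4 weeks, mouse 1 at 8 weeks or mouse 1 at 16 weeks.

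Subunits of the constitutive proteasome, the machine whose catalytic subunits are replaced in the immunoproteasome, had the lowest median of the 7 lists. Of 14 measured, 5 fell and 0 rose from 4 to 8 weeks (median -0.92, against 0.05 over all genes). They were the outer ring subunits Psma1 (log2 fold change -1.63), Psma2 (-1.37), Psma3 (-1.25) and Psma4 (-1.50) and the catalytic subunit Psmb7 (-1.53), with adjusted p of 0.0155 to 0.045 from limma. Of 31 alternatives, the call was lost in 3 for Psma4, 6 for Psmb7, 9 for Psma1, 14 for Psma2 and 18 for Psma3. Psma4 had signals of 6.35, 6.39, 7.13, 6.60 and 7.70 at 4 weeks and 5.31, 5.25, 4.89, 5.80 and 5.44 at 8 weeks, and the groups did not overlap. Psma1, Psma4 and Psmb7 were also lower at 16 than at 4 weeks (adjusted p from 0.0153 to 0.0421 from limma). With the array spread as a covariate, 0 of 14 passed from 4 to 8 weeks and the median was 0.03. Across mice left out in turn the count of called subunits from 4 to 8 weeks ran from 0, without mouse 3 at 8 weeks, to 7, without mouse 1 or 4 at 8 weeks (1 of the 7 higher in the case of mouse 4), and it was 1 without mouse 4 or 5 at 4 weeks or mouse 5 at 8 weeks. The count was 3 without mouse 3 at 4 weeks, mouse 1, 2, 4 or 5 at 12 weeks or mouse 3 at 16 weeks, 2 with array weights or the replicate block, and 0 in a fit to these 2 ages alone. From 4 to 16 weeks it ran from 0, without mouse 5 at 4 weeks or mouse 2 or 4 at 16 weeks, to 9, without mouse 1 at 16 weeks.

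Of 16 measured class II chains, chaperones and lysosomal enzymes, 2 fell and 1 rose from 4 to 8 weeks (median -0.04). Ctsl, the protease cathepsin L, fell by 1.70 and Lgmn, the asparagine endopeptidase, fell by 0.89 (adjusted p = 0.0395 and 0.045 from limma). H2-DMb2, a beta chain of H2-DM, had signals of 7.50, 7.60, 8.02, 7.48 and 7.07 at 4 weeks and 7.74, 8.37, 8.54, 7.90 and 8.21 at 8 weeks. The groups overlapped, and H2-DMb2 rose by 0.62 (limma adjusted p = 0.0398, SE 0.17). With the array spread as a covariate none of these 3 passed (adjusted p from 0.46 to 0.563 from limma). Of 31 alternatives, Ctsl and H2-DMb2 lost the call in 11 each and Lgmn in 15. The list counted 0 without mouse 4 or 5 at 4 weeks or mouse 2, 3 or 5 at 8 weeks, and also with the replicate block, array weights and the 2 ages alone. From 4 to 16 weeks the log2 fold change of Ctsl was -1.73 (adjusted p = 0.0456 from limma), and this call was lost in 19 of 31 alternatives. These were quantile normalization, the mean of probe sets, the replicate block, the array spread as a covariate, the 2 ages alone and the fits without mouse 3, 4 or 5 at 4 weeks, 2 or 3 at 8 weeks, any mouse at 12 weeks or mouse 2, 3, 4 or 5 at 16 weeks (adjusted p up to 0.338).

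Of 11 measured class I heavy chains 0 passed in any comparison. From 4 to 8 weeks 3 of them had an unadjusted p under 0.05, against 32.4% of all genes (list median 0.03). The classical heavy chains H2-D1 and H2-K1, which pair with B2m, came close from 4 to 8 weeks, at -1.41 and -1.09 (limma adjusted p = 0.0519 and 0.0924). These chains are close in sequence to each other and to their relatives, so their probe sets may share signal. H2-D1 had 8.60, 8.83, 9.42, 9.54 and 10.5 at 4 weeks and 9.06, 7.92, 7.48, 8.67 and 6.73 at 8 weeks. The 2 groups overlapped in a pair of mice at 8 weeks. Of 8 measured transcription factors of class II genes 0 passed. An unadjusted p under 0.05 from 4 to 8 weeks was found in 2, against the same 32.4% of all genes. The 2 with the lowest F-test p were Creb1 (-0.43 from 4 to 8 weeks, adjusted p = 0.157 from limma) and Nfya (0.49, adjusted p = 0.0867).

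From 8 to 12 and from 12 to 16 weeks 0 genes of the 7 lists passed by limma, and at an unadjusted p under 0.05 between 0 and 5 and between 0 and 7 genes of a list did. The shares over all genes were 0.0055% and 0.192%, and 18.8% and 14.2% at the unadjusted threshold.

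The genes of the interferon pathways were mostly below the threshold. Of 17 measured genes of interferon gamma signalling, 1 rose and 1 fell from 4 to 8 weeks (median 0.14). Cxcl9, a chemokine for T cells, had signals of 4.74, 4.88, 5.37, 5.28 and 4.60 at 4 weeks and 5.55, 5.68, 5.52, 5.46 and 5.50 at 8 weeks. The groups did not overlap, and Cxcl9 rose by 0.57 (limma adjusted p = 0.0467, SE 0.17). Jak1, a kinase of the receptor, had 6.15, 6.07, 6.80, 7.07 and 7.98 at 4 weeks and 5.63, 5.69, 5.58, 6.06 and 5.58 at 8 weeks, again without overlap, and fell by 1.11 (adjusted p = 0.0265 from limma). Neither passed with the array spread as a covariate (adjusted p = 0.437 and 0.337 from limma). Jak1 lost the call in 7 of 31 alternatives, 4 of them without mouse 4 or 5 at 4 weeks or mouse 3 or 5 at 8 weeks. Cxcl9 lost it in 20, among them the replicate block, array weights, the 2 ages alone and the fits without any one mouse at 12 weeks, mouse 3 at 16 weeks, mouse 1, 2, 4 or 5 at 4 weeks or mouse 1, 2, 3 or 5 at 8 weeks. Of 19 measured genes of the type I interferon response 0 passed in any comparison. From 4 to 8 weeks 4 of them had an unadjusted p under 0.05, against 32.4% of all genes (list median -0.10). The 2 with the lowest F-test p were the receptor chain Ifnar2 (-0.64 from 4 to 8 weeks, adjusted p = 0.0564 from limma) and the tetherin Bst2 (-0.47, adjusted p = 0.0966).

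**Figure D5:**
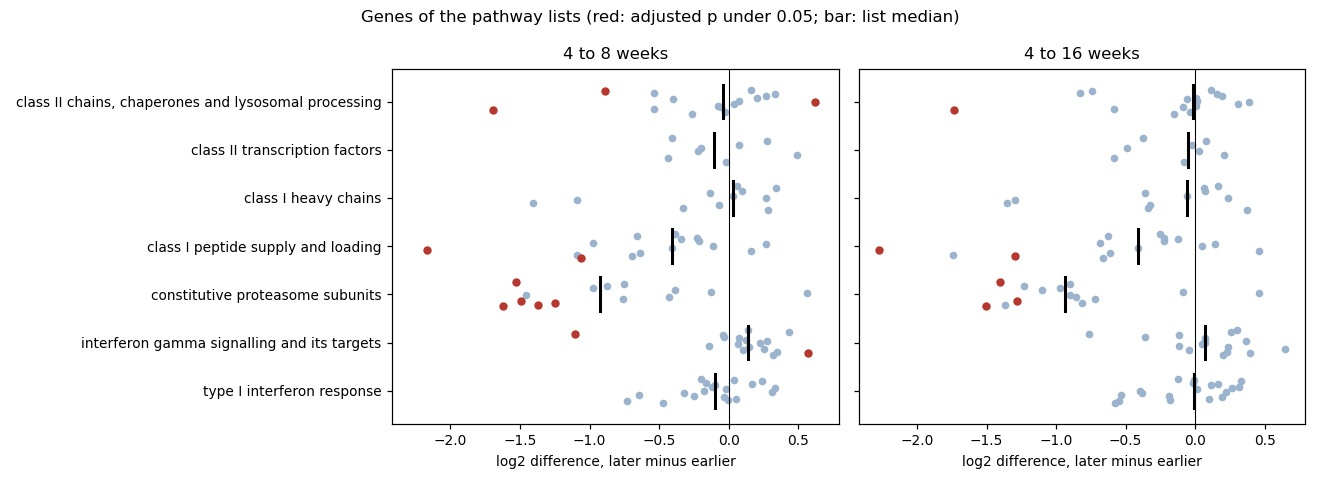
Log2 difference, later minus earlier age (horizontal axis), of each measured gene in the 7 pathway lists (vertical axis) from 4 to 8 and from 4 to 16 weeks. Points are genes, red where the adjusted p from limma was under 0.05, and bars are list medians, the lowest of which is that of the constitutive proteasome at -0.92 and -0.94.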

How the data were processed

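The authors deposited log2 signals of 45101 probe sets on 20 arrays, summarised by RMA with Expression Console 1.1, and these were used as they stand. A single gene symbol was listed for 34958 probe sets in the platform annotation, several for 932 and none for 9211, which gave 18194 genes. A linear model with age as factor was fitted to all 20 arrays in limma 3.58.1 (R 4.3.3), and p-values were adjusted by Benjamini and Hochberg over all genes (threshold 0.05). The F-test covered the 4 ages. Relations across mice used values centred within ages. The 10 genes and all lists were chosen with earlier results of these data known. Named were the 10 genes, list genes that passed in any test or, in pathway lists without any, the 2 with the lowest F-test p, and the 5 genes most like H2-Aa, Cd74, B2m and Tap1. The fit was tested on simulated data. Replicates were labelled biological, and numbers did not pair mice: deviations of same-numbered mice correlated between -0.567 and 0.583. RMA leaves no depth, so the number of arrays limits precision. Alternatives were array scaling, treatment of probe sets, a filter at the 40th percentile, variance models, array weights, the array spread, fits to 2 ages and leaving out each mouse. The last, for relations across mice, and all of them for list genes were chosen after seeing the data.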

Additional observations from a re-analysis of the deposited data

How the results depend on the processing

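The count of the 10 genes called from 4 to 8 weeks, 1, was 0 with quantile normalization, cyclic loess, array weights, the array spread as a covariate, the 2 ages alone and the replicate block (B2m adjusted p = 0.0937, 0.0913, 0.0916, 0.515, 0.0899 and 0.0656 from limma), and 0 to 1 across mice left out. B2m kept its negative sign in all 31 alternatives, from -1.26 to -0.47. From 12 to 16 and from 4 to 16 weeks the count ran from 0 to 1, the 1 being H2-Aa and B2m (-0.87, adjusted p = 0.0477 from limma) without mouse 1 at 16 weeks. Over the 4 ages it was 0 to 1 across mice left out, the 1 being B2m, and 0 in the other alternatives. From 8 to 12 weeks it was 0 in each alternative run. The filter at the 40th percentile kept 7 of the 10 genes and left out Ciita, Tap2 and Psmb8, whose signals were low. Without mouse 1 at 16 weeks, 2611 genes were called over the 4 ages, 1035 from 12 to 16 and 3003 from 4 to 16 weeks. Of 1228 recomputed log2 fold changes of the 10 genes, 0 called ones reversed, and 93 that were not called in either setting changed sign. The replicate block moved the genes called in all from 1345 to 245 from 4 to 8 weeks, and the numbers of the mice did not pair them (4 of 20 arrays were most like one with their own number). The count of called pairs, 26, was 5 with the array spread removed and 25 with median centring, and 9 to 29 across mice left out. Of the 18 named genes of the pathway lists, 11 were called from 4 to 8 weeks and 0 with the array spread as a covariate. The cause of these moves was not tested. With 5 mice per age the 95% interval of H2-Aa from 4 to 8 weeks ran from -0.90 to 0.78, so a fall or a rise within these limits is compatible with the data. The smallest difference that would have passed the adjusted threshold was not computed.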

Other observations

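Of all genes, 7.39% passed from 4 to 8 weeks and 3.63% from 4 to 16 weeks. Among the markers of other cell types, those of fibroblasts were lower at 8 than at 4 weeks in 3 of 6 genes and higher in 0. Col3a1, a fibrillar collagen, fell by 2.21 (adjusted p = 0.00445 from limma), Col1a2 fell by 1.17 and Lum, a proteoglycan, fell by 0.76. From 4 to 16 weeks 3 of 6 passed as well, among them Col1a1, which fell by 0.79. The duct kallikreins Klk1b1 and Klk1b5 rose by 1.09 and 1.76 from 4 to 8 weeks (adjusted p = 0.0336 and 0.0262 from limma). Of the 9 duct genes measured, 4 had a positive and 5 a negative log2 fold change. The mean of that list differed by 0.02 (exact permutation p = 0.976). The acinar lactoperoxidase Lpo fell by 1.61 between 4 and 8 weeks (limma adjusted p = 0.0449), and Smgc fell by 1.74 between 4 and 16 weeks (limma adjusted p = 0.0023). Myh11, a myosin of myoepithelial and smooth muscle cells, fell by 1.12 between 4 and 8 weeks (limma adjusted p = 0.0415). The calls of single marker genes, here and below, were not followed through the alternatives. Among all genes, the 1345 calls from 4 to 8 weeks were 16 with the array spread as a covariate and 2 in a fit to the 2 ages alone.

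Among immune markers, Cd3e of T cells rose by 0.41 and Gzmb, a granzyme of cytotoxic cells, by 0.68 from 4 to 8 weeks (adjusted p = 0.0446 and 0.0309 from limma). The macrophage marker Cd68 fell by 0.62 and the leukocyte gene Lcp1 fell by 1.22 (adjusted p = 0.0477 and 0.0309 from limma). Cd68 was low on the arrays, with a mean signal of 3.87 against 4.38 for Ciita. Of the 8 leukocyte genes, 7 had a positive log2 fold change, and the mean of the list differed by 0.06 (exact permutation p = 0.778). The macrophage list, which holds Cd68, differed by -0.17. Derl3, listed with the plasma cell markers, fell by 1.22 between 4 and 16 weeks (limma adjusted p = 0.0355), while the mean of the 7 plasma cell markers differed by 0.12 (exact permutation p = 0.381). Its mean signal was 9.28, against 5.29 for Jchain of the same list, and the cells it came from were not tested. Jchain, the joining chain of secreted IgA, passed the F-test over the 4 ages (adjusted p = 0.0468 from limma), with log2 fold changes of 1.29 from 8 to 12 weeks and -1.21 from 12 to 16 weeks that did not pass alone (adjusted p = 0.129 and 0.156). Its signals at 12 weeks were 6.06, 6.44, 5.82, 8.01 and 5.24. Their SD was 1.04, against 0.315 to 0.414 at the other ages, and mouse 4 stood far above the rest.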
